A study of Mus musculus with 11 samples.

Results

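Thymic fibroblasts taken 18 h after dexamethasone were compared with fibroblasts of untreated mice. The comparison used 7 of the 11 libraries of the series, chosen by their labelled treatment and time, of which 3 were from the 18 h group and 4 were untreated. The remaining libraries, taken later after dexamethasone, entered the count filter, the scaling and the estimate of the spread. All mice were young wild-type males. The 18 h group had received dexamethasone intraperitoneally at 200 ug per 10 g body weight, and the age-matched controls had received no injection, so the drug and the injection cannot be told apart. The cells came from enzymatically dissociated thymus and were sorted as CD45-EpCAM+CD34+CD31-PDGFRalpha+, in the labels' spelling. RNA was read by MARS-seq, which counts the 3' ends of polyadenylated transcripts, and each level is given in CPM, that is, counts divided by the TMM-scaled library size and put on the same scale for every library.

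Dexamethasone is a synthetic glucocorticoid. It binds the glucocorticoid receptor, a transcription factor that activates some genes and restrains many inflammatory ones, and it kills developing thymocytes, so that the thymus shrinks and later regrows. Thymic fibroblasts build the capsule and septa of the organ, deposit its matrix and secrete growth factors for thymic epithelium. The comparison asks how gene expression in these cells differed 18 h after the drug.

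The labelled sort was checked against its markers. Pdgfra, the receptor that marks mesenchymal cells, was at 76.3, 104, 93.4 and 149 CPM in untreated replicates 1 to 4 and at 79.6, 52.0 and 64.6 CPM in 18 h replicates 1 to 3. Cd34 was at 822 to 1129 CPM in untreated libraries and 467 to 797 CPM at 18 h, and it did not pass the test described below (log2 difference -0.48 ± 0.24, adjusted p = 0.202). Pdgfra did not pass either (-0.68 ± 0.35, adjusted p = 0.22). Epcam, which the label gives as positive, was at 0.377 to 10.3 CPM in untreated libraries and 1.21 to 4.78 CPM at 18 h, so that this marker was at or near 0 in most libraries. Ptprc, which encodes CD45, was at 0.516 to 5.58 CPM in untreated libraries and 15.9, 6.05 and 14.2 CPM at 18 h. Pecam1, which encodes CD31, was at 2.58, 0, 2.13 and 3.77 CPM in untreated libraries and 121, 14.5 and 42.7 CPM at 18 h, although the sort excluded CD31.

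Total counts were 1687549 to 2432295 in untreated libraries, 1915579 and 2290284 in 18 h replicates 1 and 3, and 924731 in 18 h replicate 2. A count of 0 allows up to 1.07 to 1.67 CPM in the untreated libraries, 1.59 and 1.42 CPM in 18 h replicates 1 and 3 and 3.63 CPM in 18 h replicate 2, for counting error only. Log2 differences are given as 18 h minus untreated with their standard error and the adjusted p of edgeR's quasi-likelihood test over 10067 genes, and a gene is said to have risen or fallen where the adjusted p was below 0.05. On that rule 788 genes rose (7.83%) and 470 fell (4.67%), with a median log2 difference over all tested genes of -0.03. Every count of called list members below is to be read against these shares. The lists were chosen with earlier results of these data known, so a share of called members describes a list and is not a test of it. Among all 1258 calls, 1161 had no overlap between the groups, so separate groups are usual for a called gene. Scaling by library totals alone moved the median log2 difference to -0.26 and the share of calls that were higher from 62.6% to 38.2%. When each of the 7 libraries in turn was left out, 365 of the higher and 117 of the lower calls were kept every time. The higher count was 498 without 18 h replicate 1 and 463 without untreated replicate 3. The lower count was 171 without 18 h replicate 1 and 278, 252 and 280 without untreated replicates 2, 3 and 4. The labels do not say that the samples of a group came from separate animals, so every p-value here measures sample-to-sample spread that could be technical. In sorted bulk RNA, more cells of a type and more RNA per cell cannot be told apart.

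Markers of other cells moved with the 18 h group, unequally between its libraries. Endothelial markers, 29 listed genes, summed to 979, 722, 725 and 702 CPM in untreated replicates 1 to 4 and to 2096, 750 and 1471 CPM in 18 h replicates 1 to 3. The 21 macrophage and monocyte markers summed to 112, 265, 144 and 156 CPM in untreated libraries and 708, 301 and 744 CPM at 18 h. Thus 18 h replicates 1 and 3 were above every untreated library in both sums, and 18 h replicate 2 lay within the untreated range of endothelial markers and just above that of macrophage markers. Replicate 2 of the 18 h group is therefore given beside the gene groups that follow, but its single markers did not all lie in the untreated range. Of the 14 tested endothelial markers, 6 were above every untreated library there and 2 were below. Pecam1 was among the 6, at 14.5 CPM against at most 3.77 CPM in untreated libraries. In that library 32.9% of all tested genes were above every untreated library and 37.3% below every untreated library, with no test. A second measure was a fit with the mean log2 CPM of 33 tested endothelial and macrophage markers as a covariate. That mean was 2.62 to 3.53 in untreated libraries and 5.41, 4.01 and 5.26 in 18 h replicates 1 to 3, so it alone separated the groups, and it left 274 genes higher and 232 lower. With it Pdgfra stood at -1.85 and Thy1, another fibroblast marker, at -1.90, and both passed, whereas without it Thy1 did not (-0.49 ± 0.35, adjusted p = 0.388).

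**Figure D1:**
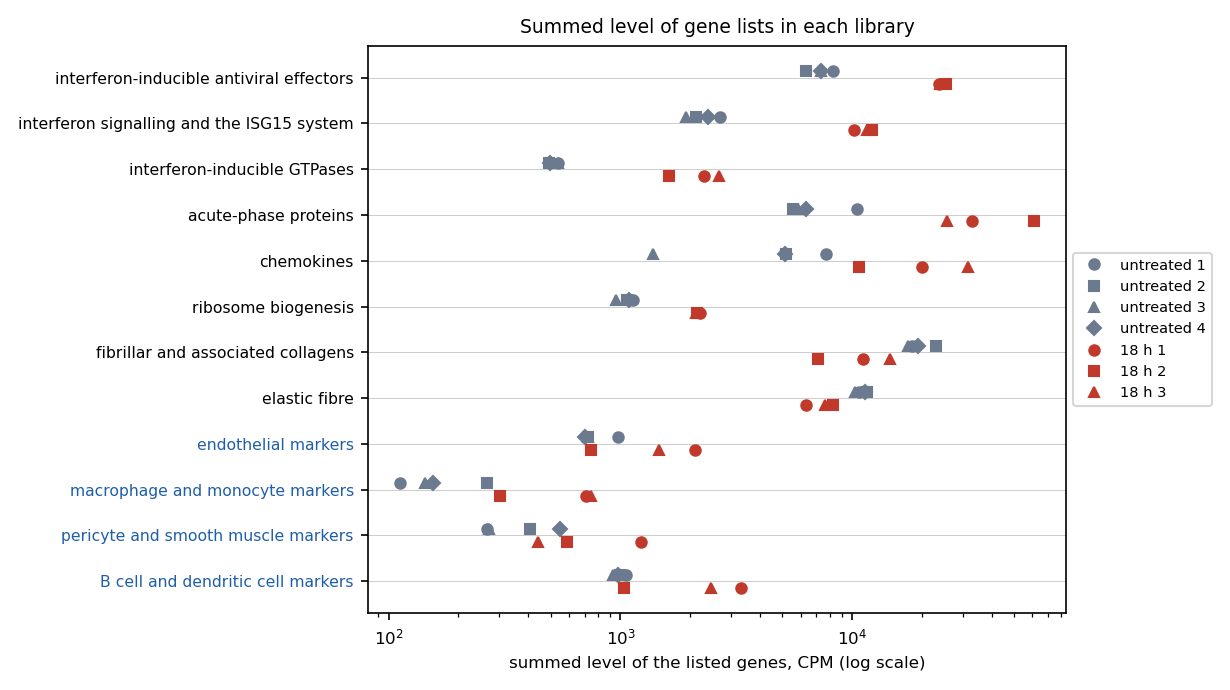
Summed CPM (log scale) of 12 gene lists in each of 4 untreated (grey) and 3 18 h (red) libraries, 1 symbol per replicate number, with lists of other cells' markers named in blue. The 3 interferon lists, the acute-phase list and the ribosome biogenesis list lie above the untreated libraries in all 3 18 h libraries, whereas for endothelial markers 18 h replicate 2 (square) lies at 750 CPM, among the untreated libraries. Of the 14 tested endothelial markers, 6 were above every untreated library in 18 h replicate 2 and 2 were below.

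Interferons signal through JAK kinases to a complex of STAT factors with IRF9, which binds a short element in the promoters of genes whose products block viral replication. Of 51 tested effector genes 46 rose (90.2%, against 7.83% of all tested genes) and 1 fell, with a median log2 difference of 2.33, and 41 of the 46 kept their call when each library was left out in turn. Their summed level was 8248, 6319, 7369 and 7337 CPM in untreated replicates 1 to 4 and 23761, 25428 and 23869 CPM in 18 h replicates 1 to 3. In 18 h replicate 2, 49 of the 51 were above every untreated library. With the marker covariate 29 of the same genes were called higher and 0 lower, and the median was 2.32.

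Oasl1, an oligoadenylate synthetase-like inhibitor of interferon production in mice, was at 17.5, 15.1, 9.95 and 9.42 CPM in untreated libraries and 259, 260 and 383 CPM at 18 h, a log2 difference of 4.55 ± 0.29 (adjusted p = 6.6e-07). Zbp1, a sensor of Z-form nucleic acids that can start cell death, was at 89.7, 93.1, 120 and 110 CPM in untreated libraries and 805, 1016 and 919 CPM at 18 h (3.14 ± 0.23, adjusted p = 2.3e-06). Slfn2, a Schlafen protein needed for immune cell quiescence in mice, was at 13.4 to 24.1 CPM in untreated libraries and 213, 353 and 208 CPM at 18 h (3.73 ± 0.30, adjusted p = 4.2e-06). In all of these the lowest 18 h library was several times the highest untreated one. Bst2, which tethers budding virions to the cell, was at 761, 681, 645 and 595 CPM in untreated libraries and 3745, 4037 and 4280 CPM at 18 h (2.58 ± 0.23, adjusted p = 1.2e-05). Ifit3, which binds other IFIT proteins that recognise viral RNA, was at 131, 82.0, 112 and 145 CPM in untreated libraries and 1382, 1760 and 1248 CPM at 18 h (3.64 ± 0.28, adjusted p = 3.8e-06), a value that may include reads of its near copy Ifit3b. The RNA-cleaving pathway was represented by Oas3, which makes the activator of RNase L, at 3.35 to 9.24 CPM in untreated libraries and 72.7, 200 and 126 CPM at 18 h (4.24 ± 0.40, adjusted p = 1.9e-05). Oas1a, of the same enzyme family and with close copies, was at 6.39 to 8.25 CPM and 51.5, 131 and 73.6 CPM (3.54 ± 0.35, adjusted p = 3.0e-05). Both OAS genes were higher in 18 h replicate 2 than in the other libraries of that group.

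Exceptions within the list were few. Ifi27, an interferon-inducible protein of mitochondria and nuclear envelope, was at 858, 654, 734 and 752 CPM in untreated libraries and 266, 316 and 411 CPM at 18 h, and fell by 1.18 on the log2 scale (SE 0.21, adjusted p = 0.0032), with no overlap. With the marker covariate its difference was -1.13 and no longer passed. Oasl2, named after its values were seen, was at 88.9 to 145 CPM in untreated libraries and 272, 42.3 and 466 CPM at 18 h (1.13 ± 0.49, adjusted p = 0.151). The 18 h libraries thus lay on both sides of the untreated range for Oasl2, with 18 h replicate 2 below it.

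The signalling genes upstream rose in part. Of 23 tested genes for interferon receptors, kinases, STAT and IRF factors and the ISG15 system, 13 rose and 0 fell (median 1.20). Of these, 8 kept their call in all leave-one-out fits, the count being 8 without untreated replicate 2, and 5 were called with the marker covariate. Isg15, a ubiquitin-like protein that is joined to other proteins after interferon (protein-coding, chromosome 4, 156199424 to 156200818, GRCm38), was at 544, 382, 336 and 475 CPM in untreated libraries and 5524, 6048 and 6168 CPM at 18 h. That is 434 ± 93.1 CPM (SD, n = 4) against 5913 ± 342 CPM (SD, n = 3), a 13.6-fold difference (log2 3.77 ± 0.25, adjusted p = 6.6e-07). Genes of the enzymes that attach and remove it rose too. Uba7, its activating enzyme, was at 60.8 to 89.7 CPM and 308, 491 and 208 CPM (2.11 ± 0.27, adjusted p = 2.6e-04), and Trim25, a ligase for it, at 14.6 to 18.6 CPM and 72.2, 185 and 89.3 CPM (2.83 ± 0.34, adjusted p = 1.5e-04). Usp18, which removes Isg15 and dampens the receptor, was at 28.4 to 34.0 CPM in untreated libraries and 229, 193 and 314 CPM at 18 h (2.98 ± 0.23, adjusted p = 3.8e-06).

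Among the transcription factors, Irf7, the factor that amplifies interferon production (chromosome 7, 141262706 to 141266481), was at 213, 130, 161 and 166 CPM in untreated libraries and 1514, 2612 and 1826 CPM at 18 h, a difference of 3.56 ± 0.29 (adjusted p = 5.1e-06). Members of the binding complex moved by less. Stat2 was at 29.8 to 109 CPM in untreated libraries and 285, 427 and 157 CPM at 18 h (2.26 ± 0.44, adjusted p = 0.00492). Irf9 was at 53.9 to 119 CPM and 184, 127 and 262 CPM (1.18 ± 0.30, adjusted p = 0.0188). Every 18 h library was above every untreated one for both. The call of Irf9 was lost in 4 of the 7 leave-one-out fits, and with the marker covariate Stat2 and Irf9 did not pass, at 2.32 and 1.09. The receptor genes Ifnar1, at 6.41 to 11.3 CPM and 7.12 to 9.55 CPM, and Ifngr1, at 52.6 to 117 CPM and 69.3 to 117 CPM, did not pass (0.06 ± 0.40 and 0.18 ± 0.27). Stat2, Irf9, Ifnar1 and Ifngr1 were named after their values were seen.

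Of 14 tested GTPases of the guanylate-binding, immunity-related and Mx families, which attack the vacuoles of intracellular pathogens or viral capsids, 11 rose and 0 fell (median 1.96), and 10 kept their call in all leave-one-out fits. Mx2 was at 20.6, 12.8, 4.97 and 18.8 CPM in untreated libraries and 195, 283 and 123 CPM at 18 h (3.81 ± 0.45, adjusted p = 1.3e-04); the annotation lists it as a polymorphic pseudogene. Igtp was at 84.6, 44.1, 52.6 and 59.9 CPM in untreated libraries and 340, 191 and 291 CPM at 18 h (2.19 ± 0.26, adjusted p = 1.7e-04). For both, every 18 h library exceeded every untreated one. Mx1 was at 0.710 to 10.8 CPM in untreated libraries and 279, 48.4 and 122 CPM at 18 h (4.72 ± 0.69, adjusted p = 7.6e-04), and Gbp2 at 127 to 146 CPM and 430, 334 and 621 CPM (1.75 ± 0.23, adjusted p = 3.5e-04). These 2 were lowest at 18 h in replicate 2, and with the marker covariate Mx1 and Gbp2 no longer passed, at 1.89 and 1.27. That covariate left 3 GTPases called.

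Class I presentation displays peptides of the cell interior to CD8 T cells. Of 22 tested genes 11 rose and 0 fell (median 0.85), 6 of them in all leave-one-out fits, with 6 called without untreated replicate 2, 7 with library totals and 5 with the marker covariate. Nlrc5, the activator of class I genes, was at 7.22, 5.58, 3.20 and 8.29 CPM in untreated libraries and 66.9, 99.2 and 55.1 CPM at 18 h (3.58 ± 0.35, adjusted p = 2.4e-05). Tap1, the peptide transporter, was at 81.0, 60.2, 55.8 and 86.3 CPM in untreated libraries and 352, 329 and 303 CPM at 18 h (2.21 ± 0.26, adjusted p = 1.2e-04). The immunoproteasome subunit Psmb10 was at 241 to 281 CPM and 757, 1024 and 815 CPM (1.76 ± 0.22, adjusted p = 2.2e-04). The groups did not overlap in any of these. Genes of the presenting molecules did not pass. The heavy chain genes H2-K1 and H2-D1, named after their values were seen, were at 2654 ± 391 and 2907 ± 493 CPM (SD, n = 4) in untreated libraries and 3281 ± 931 and 3505 ± 623 CPM (SD, n = 3) at 18 h. B2m, the light chain, was at 1997, 2103, 2433 and 3934 CPM in untreated libraries and 4696, 2510 and 3613 CPM at 18 h (0.46 ± 0.34, adjusted p = 0.405).

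Promoter sequences of effector genes that rose are shown because the interferon complex acts through a known element, whose core is written here as GAAANNGAA. It was searched on both strands, and capitals mark its matches in the 250 bases before the RefSeq start (GRCm38.p6, 5′ to 3′ in the direction of the gene); matches on the opposite strand are capitalised as they read in the printed strand. The genes are those 4 with the smallest adjusted p among effectors whose printed window holds the letters. The stretches are chr19:34583279-34583528 (plus strand) for Ifit3, chr8:71537473-71537722 (minus) for Bst2, chr5:120777660-120777909 (minus) for Oas3 and chr5:120907526-120907775 (minus) for Oas1a.
Ifit3: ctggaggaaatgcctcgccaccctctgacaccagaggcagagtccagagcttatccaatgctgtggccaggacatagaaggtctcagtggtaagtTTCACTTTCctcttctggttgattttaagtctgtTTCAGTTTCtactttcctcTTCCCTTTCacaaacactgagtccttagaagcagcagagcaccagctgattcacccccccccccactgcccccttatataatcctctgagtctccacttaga
Bst2: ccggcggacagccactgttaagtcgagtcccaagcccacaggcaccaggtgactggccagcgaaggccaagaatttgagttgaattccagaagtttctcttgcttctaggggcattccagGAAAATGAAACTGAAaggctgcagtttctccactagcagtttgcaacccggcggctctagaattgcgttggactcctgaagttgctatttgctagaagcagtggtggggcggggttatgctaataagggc
Oas3: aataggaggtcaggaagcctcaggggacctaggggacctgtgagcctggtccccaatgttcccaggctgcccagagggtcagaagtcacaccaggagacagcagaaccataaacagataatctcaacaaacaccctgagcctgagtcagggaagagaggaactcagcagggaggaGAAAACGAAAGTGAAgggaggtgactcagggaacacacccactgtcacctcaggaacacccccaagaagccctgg
Oas1a: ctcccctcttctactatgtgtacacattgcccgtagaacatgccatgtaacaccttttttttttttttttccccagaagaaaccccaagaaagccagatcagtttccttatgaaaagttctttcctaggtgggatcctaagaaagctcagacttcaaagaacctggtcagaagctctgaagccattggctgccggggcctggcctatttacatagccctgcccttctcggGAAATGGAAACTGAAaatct
Ifit3 holds 3 matches, and the other genes hold 2 overlapping ones each, 130 bases before the start in Bst2, 75 in Oas3 and 20 in Oas1a. In Bst2 they also overlap letters of the STAT element TTCCNGGAA. Over windows of 300 bases (250 before to 50 after the start), the core was in 9.76% of the 27025 genes of the RefSeq table and in 23.8% of the 21 tested signalling genes that have a window, of 23. For the antiviral list only 39 of 51 tested members had a window (76.5%), so a share over that list is void because too many members lack one. A match is a description of letters and not a binding site.

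**Figure D2:**
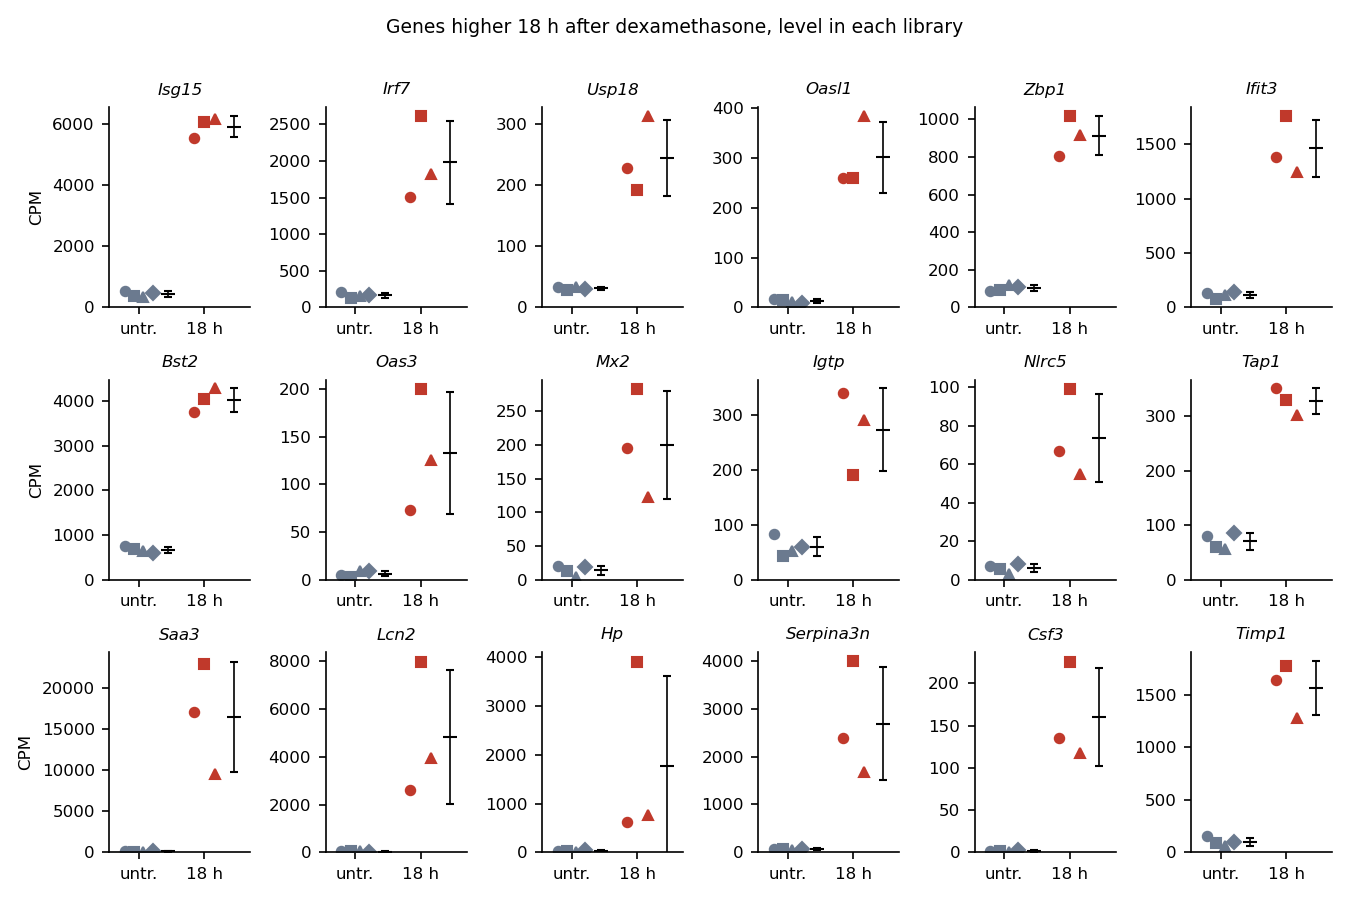
Level (CPM, linear axis from 0) of 18 genes in each of 4 untreated (grey) and 3 18 h (red) libraries, 1 symbol per replicate number, with black bars for mean and SD (cut at 0 for Hp). Every 18 h library lies above every untreated library in all 18 panels. The rule that picked Saa3, Lcn2, Hp and Csf3 required this, and 1161 of all 1258 calls had no overlap between the groups. At 18 h, replicate 2 (square) is the highest for Saa3, Lcn2, Hp, Serpina3n and Csf3 and the lowest for Usp18 and Igtp.

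Acute-phase genes held the largest single rises. These genes encode secreted defence and transport proteins that the liver makes in inflammation, under C/EBP, STAT3 and NF-kB factors, and that stromal cells can also make. Of 17 tested, 13 rose and 0 fell (76.5%, median 3.4), 11 of them in all leave-one-out fits, and 10 were called with the marker covariate. The summed level of the 23 listed genes was 10502, 5568, 5865 and 6328 CPM in untreated replicates 1 to 4 and 32909, 61180 and 25601 CPM in 18 h replicates 1 to 3. Printed here are the 2 acute-phase promoters with the smallest adjusted p that hold letters of C/EBP (TTGCNNAAT), NF-kB (GGGANTTCC) or STAT (TTCCNGGAA) elements, searched on both strands with matches in capitals. They are chr7:46715677-46715926 (minus strand) for Saa3 and chr7:46751583-46751832 (plus strand) for Saa2.
Saa3: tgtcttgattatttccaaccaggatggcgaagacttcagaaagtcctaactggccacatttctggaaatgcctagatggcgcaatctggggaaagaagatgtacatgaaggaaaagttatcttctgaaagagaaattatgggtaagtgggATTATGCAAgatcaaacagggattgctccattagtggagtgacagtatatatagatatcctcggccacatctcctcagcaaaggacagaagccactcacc
Saa2: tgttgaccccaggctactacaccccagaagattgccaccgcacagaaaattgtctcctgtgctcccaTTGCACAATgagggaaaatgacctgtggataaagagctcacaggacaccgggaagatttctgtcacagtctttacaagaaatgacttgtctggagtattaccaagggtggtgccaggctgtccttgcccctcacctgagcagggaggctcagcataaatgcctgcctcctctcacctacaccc
Each holds 1 match, to C/EBP, 100 bases before the start in Saa3 and 183 in Saa2, and the one in Saa3 overlaps letters of the D-box TTATGNAA. Among RefSeq windows, 2.77% hold the C/EBP letters. A share over the acute-phase list is void, since only 13 of its 17 tested members are in that table.

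Saa3, a serum amyloid made outside the liver (chromosome 7, 46711998 to 46715700), was at 130, 108, 90.9 and 123 CPM in untreated libraries and 17103, 22857 and 9478 CPM at 18 h, a log2 difference of 7.19 ± 0.35 (adjusted p = 5.5e-08). Saa2 was at 0 to 1.67 CPM in untreated libraries and 46.7, 72.6 and 29.9 CPM at 18 h, a value that counting may share with its near copy Saa1. Lcn2, which withholds iron from bacteria by binding their siderophores, was at 39.2, 40.7, 54.0 and 18.1 CPM in untreated libraries and 2611, 7992 and 3936 CPM at 18 h (6.99 ± 0.45, adjusted p = 6.6e-07). Saa3 and Lcn2 thus went from low to very abundant transcripts in each 18 h library. Hp, haptoglobin, which binds free haemoglobin, was at 33.5, 32.9, 18.5 and 45.6 CPM in untreated libraries and 615, 3899 and 768 CPM at 18 h (5.75 ± 0.63, adjusted p = 7.0e-05). Serpina3n, a protease inhibitor of a family of close copies, was at 72.2, 81.4, 45.5 and 68.6 CPM in untreated libraries and 2390, 3983 and 1678 CPM at 18 h (5.33 ± 0.40, adjusted p = 3.3e-06). Both were highest in 18 h replicate 2, Hp by several times. Lrg1, a secreted modulator of TGF-beta signalling, was at 0 to 1.12 CPM in untreated libraries and 159, 26.6 and 214 CPM at 18 h (7.80 ± 0.77, adjusted p = 3.0e-05), a size that rests on 5 untreated counts.

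Ptx3, a soluble pattern recognition molecule, and Slc39a14, a zinc and iron importer, both named after their values were seen, completed the group. Ptx3 was at 286, 134, 41.2 and 122 CPM in untreated libraries and 1203, 1311 and 2072 CPM at 18 h (3.4 ± 0.50, adjusted p = 7.9e-04). Slc39a14 was at 5.33 to 19.6 CPM and 150, 145 and 83.6 CPM (3.36 ± 0.42, adjusted p = 2.2e-04). C3, the central complement component, was already at 3948 to 8697 CPM in untreated libraries, and at 6911, 18130 and 5519 CPM at 18 h it overlapped them (0.84 ± 0.39, adjusted p = 0.178). Of 21 tested complement and coagulation genes 3 rose (14.3%, against 7.83% of all tested genes) and 1 fell (4.76%, against 4.67%), with a median of 0.06. Cfb, the protease subunit of the alternative pathway, was at 1021, 515, 758 and 507 CPM in untreated libraries and 2587, 3913 and 1900 CPM at 18 h (2.0 ± 0.35, adjusted p = 0.00264). C4a also rose, and Colec12, a scavenger receptor of the collectin family, fell from 191 to 301 CPM in untreated libraries to 71.7 to 96.1 CPM (-1.38 ± 0.27, adjusted p = 0.0052). With the marker covariate Colec12 lost its call, at -0.78. The count of lower genes was 2 without untreated replicate 1.

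Among genes of the IL-6 family, its signalling and colony-stimulating factors, 9 of 20 tested rose and 0 fell (median 1.10), and 3 of them, Csf3, Lif and Csf2, kept their calls in all leave-one-out fits. The count of higher genes was 5 without 18 h replicate 3, 4 without untreated replicate 2 or 4, 3 without untreated replicate 3 and 2 with the marker covariate, and 1 gene was lower without 18 h replicate 3. Csf3, the granulocyte growth factor, was at 1.55, 1.12, 0.355 and 3.39 CPM in untreated libraries and 136, 226 and 118 CPM at 18 h (6.56 ± 0.60, adjusted p = 1.6e-05). Lif was at 16.5, 10.0, 4.62 and 4.52 CPM in untreated libraries and 52.0, 88.3 and 57.0 CPM at 18 h (2.90 ± 0.43, adjusted p = 7.5e-04). Csf2 was at 10.3, 1.67, 0.710 and 1.51 CPM and 25.5, 21.8 and 28 CPM (2.90 ± 0.65, adjusted p = 0.0111), and with the marker covariate its call ended at 2.73. Il6 was at 21.7, 87.5, 28.8 and 111 CPM in untreated libraries and 224, 476 and 279 CPM at 18 h (2.39 ± 0.60, adjusted p = 0.0196), and its call was lost in 2 leave-one-out fits and, at 1.72, with the covariate. For all 4 cytokines the lowest 18 h library was above the highest untreated one. Stat3, the factor downstream, and its inhibitor Socs3, both named after their values were seen, had differences of 1.07 ± 0.39 and 0.92 ± 0.40 that did not pass (adjusted p = 0.0881 and 0.151).

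Of 24 tested subunits, inhibitors and targets of NF-kB, an inflammatory transcription factor, 10 rose and 0 fell (median 1.04), of which 3 kept their call in all leave-one-out fits. The count was 3 without 18 h replicate 3, 6 without untreated replicate 3 or 4, 6 with the 7 compared libraries alone and 2 with the marker covariate. Tnip1, an inhibitor of the pathway that binds A20, was at 213, 175, 140 and 133 CPM in untreated libraries and 295, 734 and 454 CPM at 18 h (1.58 ± 0.28, adjusted p = 0.00287). Tnfaip2 was at 166, 64.1, 12.4 and 103 CPM in untreated libraries and 321, 1449 and 439 CPM at 18 h (3.09 ± 0.66, adjusted p = 0.00797). Nfkbie, an inhibitor that holds the factor in the cytoplasm, was at 21.3 to 57.2 CPM and 75.9, 110 and 110 CPM (1.28 ± 0.31, adjusted p = 0.0176). In these genes untreated replicate 3 or 4 was lowest and 18 h replicate 1 was lowest at 18 h. With the covariate Tnip1 and Tnfaip2 passed, at 2.10 and 3.74, and Nfkbie did not, at 0.95.

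Chemokine genes were high at 18 h but also varied among untreated libraries, from 1383 CPM summed in untreated replicate 3 to 7723 CPM in untreated replicate 1, against 20002, 10684 and 31707 CPM in 18 h replicates 1 to 3. Of 22 tested, 12 rose and 0 fell (median 1.98), with 6 kept in all leave-one-out fits, 7 called without 18 h replicate 1 and 2 with the marker covariate, Cxcl10 and Cxcl2. Cxcl10, an interferon-inducible attractant of T cells, was at 586, 328, 158 and 482 CPM in untreated libraries and 4858, 3865 and 4210 CPM at 18 h (3.47 ± 0.45, adjusted p = 2.6e-04). Cxcl2, an attractant of neutrophils, was at 335, 233, 119 and 219 CPM in untreated libraries and 778, 1246 and 1855 CPM at 18 h (2.51 ± 0.36, adjusted p = 6.5e-04). Ccl3, which attracts monocytes and other leukocytes, was at 0 to 1.12 CPM and 27.1, 26.6 and 24.7 CPM (5.71 ± 0.81, adjusted p = 5.9e-04, from 4 untreated counts). The 18 h libraries lay apart from the untreated ones for each of these. Ccl4, at 0 to 7.25 CPM and 73.8, 47.2 and 97.8 CPM (5.38 ± 1.0, adjusted p = 0.00364), and Cxcl3, at 2.13 to 35.6 CPM and 153, 50.8 and 580 CPM (3.92 ± 0.79, adjusted p = 0.00604), also rose. The covariate ended the calls of Ccl3, Ccl4 and Cxcl3, at 4.51, 2.35 and 1.53.

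Cxcl1 and Ccl2, attractants of neutrophils and monocytes, were abundant in both groups and were named after their values were seen. Cxcl1 was at 436 to 3535 CPM in untreated libraries and 5618, 1864 and 13576 CPM at 18 h and did not pass (1.7 ± 0.62, adjusted p = 0.0848). Ccl2 was at 313 to 2146 CPM in untreated libraries and 5371, 1629 and 7683 CPM at 18 h and passed (2.04 ± 0.54, adjusted p = 0.024), with 18 h replicate 2 inside the untreated range. It lost the call in 4 leave-one-out fits and, at 0.56, with the covariate. Il1b, a cytokine that myeloid cells also make, was at 0 to 2.64 CPM in untreated libraries and 96.1, 15.7 and 38.9 CPM at 18 h (5.50 ± 1.13, adjusted p = 0.00645), and with the covariate its difference was 0.43 and did not pass. Il1rn, the receptor antagonist, had 2 counts in the untreated libraries together and was at 14.9, 7.26 and 26.6 CPM at 18 h.

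**Figure D3:**
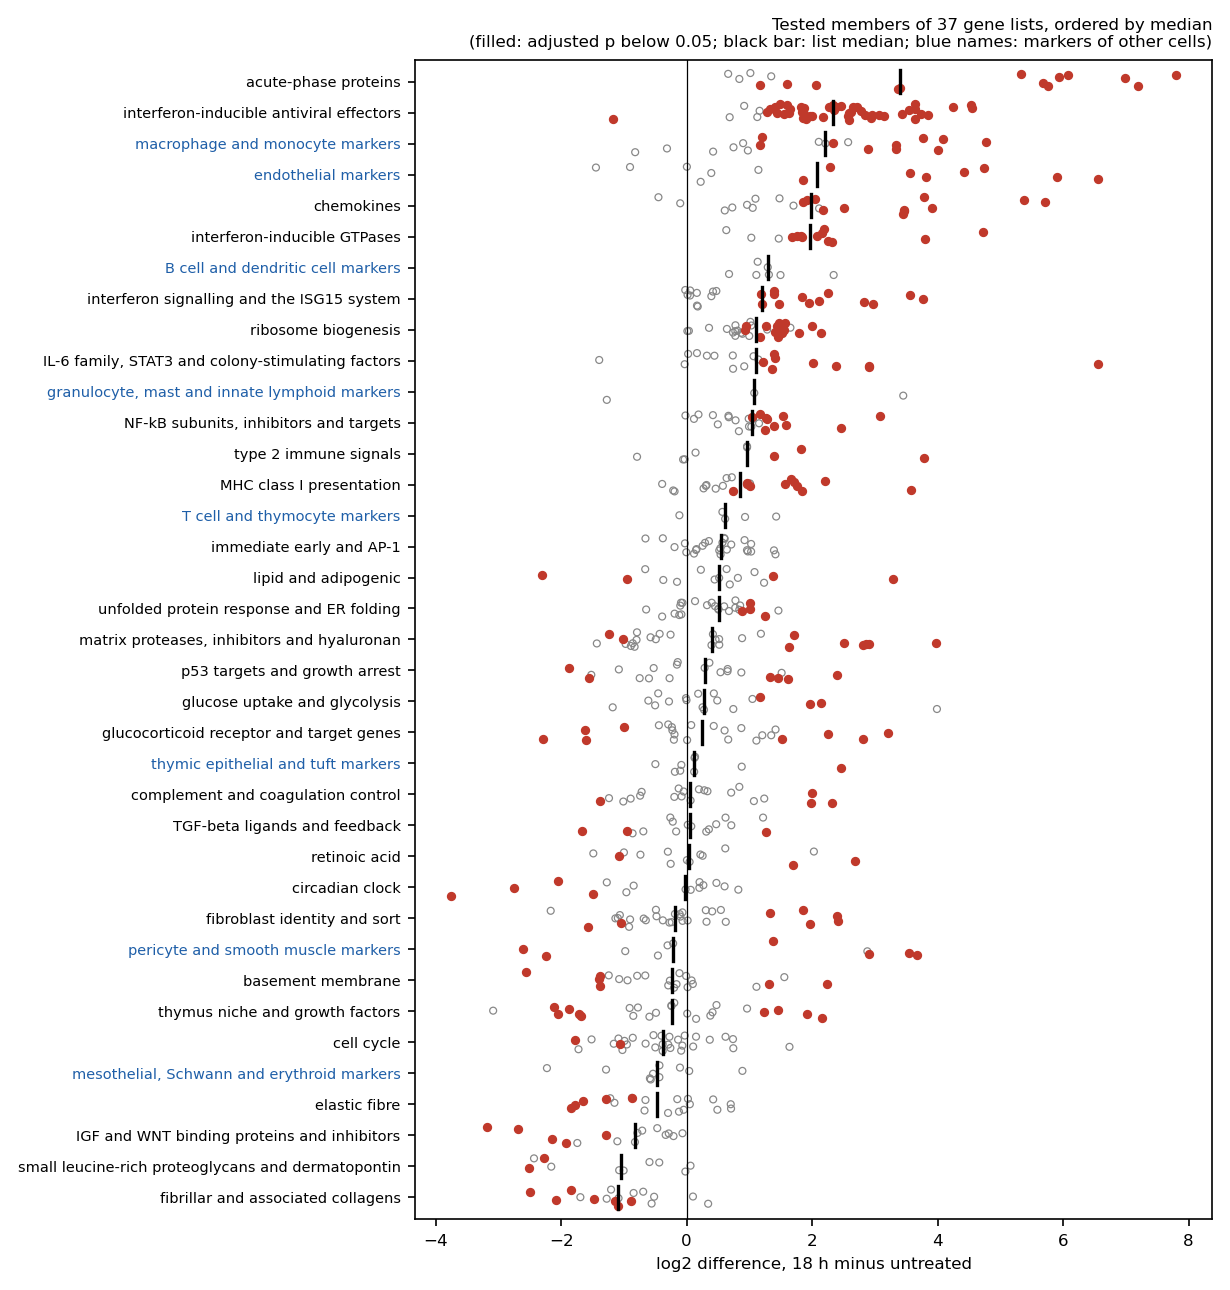
Log2 difference (18 h minus untreated) of the tested members of 37 gene lists, ordered by the list median (black bar), with filled points for an adjusted p below 0.05 and list names of other cells' markers in blue. Acute-phase genes have the highest median (3.4) and fibrillar collagens the lowest (-1.09), and macrophage and endothelial markers stand beside the inflammatory lists.

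Genes of the glucocorticoid receptor went both ways. Of 24 tested, 4 rose and 4 fell (median 0.25). Nr3c1, which encodes the receptor itself, was at 76.8, 109, 95.6 and 95.7 CPM in untreated libraries and 37.2, 19.3 and 34.2 CPM at 18 h, a log2 difference of -1.61 ± 0.27 (adjusted p = 0.00195). The metallothioneins Mt1 and Mt2, near copies that bind zinc and are induced by glucocorticoids and by inflammation, varied widely among untreated libraries. Mt2 was at 3448, 2019, 418 and 1701 CPM in untreated libraries and 15238, 24986 and 12443 CPM at 18 h (3.21 ± 0.51, adjusted p = 0.00132), and Mt1 rose by 2.80 ± 0.48 (adjusted p = 0.00231). Ddit4, an inhibitor of mTOR, was at 37.7 to 52.8 CPM and 125, 186 and 79.3 CPM (1.51 ± 0.27, adjusted p = 0.00264). Lpin1, an enzyme of lipid synthesis, fell from 8.92 to 12.4 CPM to 1.21 to 2.65 CPM (-2.29 ± 0.40, adjusted p = 0.00238). The textbook targets Fkbp5, at 35.5 to 99.5 CPM in untreated libraries and 71.1, 129 and 38 CPM at 18 h, and Tsc22d3, at 23.2 to 44.4 CPM and 19.6, 42.3 and 14.7 CPM, overlapped and did not pass (0.43 ± 0.49 and -0.44 ± 0.38, adjusted p = 0.612 and 0.478). The lower count was 2 without any 1 of 18 h replicate 2 and untreated replicates 2, 3 and 4, with Nr3c1 and Lpin1 called in all leave-one-out fits. With the marker covariate 2 were lower, 1 of them among the original 4: Nr3c1 passed at -2.39 and Lpin1 did not, at -2.47. The glucocorticoid palindrome ACANNNTGT was in 3 of the 20 promoter windows of the list (15.0%, 20 of 24 members), whether the gene was called or not. It was in 4.80% of the windows of all tested genes and in 7.90% of all windows.

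Clock output genes Dbp and Hlf fell. They encode factors that follow the daily rhythm, and Dbp was at 164, 119, 34.8 and 67.1 CPM in untreated libraries and 3.18, 15.7 and 5.70 CPM at 18 h (-3.75 ± 0.78, adjusted p = 0.00712). Hlf was at 5.65 to 13.1 CPM in untreated libraries and 0.531, 2.42 and 1.42 CPM at 18 h (-2.74 ± 0.56, adjusted p = 0.00639). Of 15 tested clock genes 4 fell and 0 rose (median -0.02), 2 fell without 18 h replicate 1, 1 rose without untreated replicate 2, and 0 fell with the marker covariate, where Dbp was at -3.01 and Hlf at -1.08. Arntl, the activator of the core loop, named after its values were seen, was at 25.2 to 43.8 CPM and 31.4 to 43.2 CPM (0.21 ± 0.38, adjusted p = 0.761). Time of day at collection is not stated in the labels and cannot be told apart from the treatment. The immediate early and AP-1 genes, which respond within minutes to stress and to tissue dissociation, had 0 of 26 called by edgeR, with 6 at an unadjusted p below 0.05, 2 called by DESeq2 and 1 by limma-voom. Fos, named after its values were seen, was at 1668, 3971, 1677 and 2491 CPM in untreated libraries and 1975, 742 and 1946 CPM at 18 h (-0.66 ± 0.41, adjusted p = 0.318). Leaving out a library gave 1 higher without 18 h replicate 2 or untreated replicate 2, 2 higher without untreated replicate 1 and 1 lower without 18 h replicate 3.

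Of the ribosome biogenesis genes, 16 of 32 tested rose and 0 fell (median 1.10). These genes encode the nucleolar factors that process ribosomal RNA and assemble ribosomal subunits. The calls of 13 were kept in all leave-one-out fits, and 6 genes were called with the marker covariate, where the median was 1.48. Their sum was 1137, 1065, 953 and 1085 CPM in untreated libraries and 2214, 2143 and 2111 CPM at 18 h. The 3 18 h libraries were therefore nearly equal. Nop2, an RNA methyltransferase, was at 28.9, 20.6, 23.1 and 21.9 CPM in untreated libraries and 70.1, 77.4 and 62.2 CPM at 18 h (1.56 ± 0.22, adjusted p = 5.0e-04). Ppan, needed for the large subunit, was at 43.3, 29.0, 25.9 and 32.4 CPM in untreated libraries and 119, 178 and 97.3 CPM at 18 h (2.0 ± 0.29, adjusted p = 6.3e-04). Gar1, a protein of the pseudouridylation complex, was at 21.9 to 33.5 CPM and 65.8, 76.2 and 76.0 CPM (1.46 ± 0.21, adjusted p = 7.6e-04), and Nhp2 of the same complex at 85.3 to 99.5 CPM and 245, 187 and 236 CPM (1.27 ± 0.19, adjusted p = 0.00104). Nhp2 lost its call with the covariate, at 1.06.

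Stress and metabolic lists had few calls. Their sums were nonetheless higher in each 18 h library for p53 and growth arrest genes (2179 to 3796 CPM untreated, 3948 to 4537 CPM at 18 h). The same held for glycolysis (2013 to 2188 and 2537 to 3241 CPM) and the unfolded protein response (4659 to 6532 and 7756 to 9611 CPM). Cell cycle sums overlapped (1297 to 1419 and 1155 to 1363 CPM). Of 21 tested p53 target and growth arrest genes 4 rose and 2 fell, and 1 call was kept in all leave-one-out fits. It was that of Gdf15, a stress cytokine, at 8.53 to 43.7 CPM in untreated libraries and 166, 93.1 and 155 CPM at 18 h (2.40 ± 0.41, adjusted p = 0.00235), which ended with the covariate at 1.02. The counts were 2 higher without 18 h replicate 3 or untreated replicate 2 or 3, and 0 lower without 18 h replicate 1 and 1 lower without untreated replicate 2. Of 18 glycolysis genes 3 rose (16.7%) and 0 fell, with 1 lower without 18 h replicate 3. They were led by the glucose transporter Slc2a1 at 6.75 to 42.3 CPM and 74.3, 108 and 99.7 CPM (2.14 ± 0.45, adjusted p = 0.00693). With the covariate Slc2a1 stood at 1.96 and had no call. Of 25 genes of the unfolded protein response 4 rose and 0 fell, none in all leave-one-out fits, with 0 higher with library totals, 1 without 18 h replicate 1 or untreated replicate 3 or 4 and 2 without 18 h replicate 3 or untreated replicate 2. Of 30 cell cycle genes 2 fell (6.67%, against 4.67% of all tested genes) and 0 rose. The list had 0 lower without 18 h replicate 2 and 1 lower without any other library but untreated replicate 3, and 1 higher without untreated replicate 1. Mki67, a marker of dividing cells, was at 5.58 to 15.5 CPM and 5.70 to 9.55 CPM (-0.38 ± 0.49, adjusted p = 0.652).

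Fibrillar collagens give tissue its tensile strength, and elastic fibres are built of elastin on a scaffold of fibrillins and microfibril proteins. The summed collagen list was at 18211, 22997, 17355 and 19172 CPM in untreated libraries and 11140, 7143 and 14518 CPM at 18 h, and 7 of 17 tested members fell while 0 rose (41.2%, against 4.67% of all tested genes, median -1.09). That count was 2 without 18 h replicate 1 or 2 or untreated replicate 2 or 4 and 11 with library totals, and 1 member, Col6a5, kept its call in all leave-one-out fits. Col6a5, a chain of the beaded-filament collagen VI, was at 42.8, 26.2, 28.8 and 47.9 CPM in untreated libraries and 8.49, 9.67 and 8.07 CPM at 18 h (-2.07 ± 0.39, adjusted p = 0.00363). The main chains were more variable. Col1a2 was at 4906, 5112, 3716 and 4276 CPM in untreated libraries and 2156, 1056 and 2906 CPM at 18 h (-1.14 ± 0.32, adjusted p = 0.0326, lost in 4 leave-one-out fits). Col3a1 was at 5242 to 8205 CPM and 2834, 379 and 4936 CPM, and Col1a1 at 182 to 564 CPM and 243, 78.6 and 210 CPM, and neither passed (-1.27 ± 0.55 and -1.20 ± 0.42, adjusted p = 0.146 and 0.0729). With the marker covariate both did, at -3.46 and -2.77. For Col3a1 and Col1a2 18 h replicate 2 was far below the other libraries. In 18 h replicate 2, 13 of the 17 collagen genes lay below every untreated library, against 37.3% of all tested genes.

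Of 20 tested elastic fibre genes 5 fell and 0 rose (median -0.48), 4 in all leave-one-out fits, with 9 lower and 2 higher with DESeq2, 9 lower and 0 higher with library totals, 3 lower with the marker covariate, and 1 higher with RLE size factors, with limma-voom and without untreated replicate 4. Eln, elastin (chromosome 5, 134702593 to 134747323), was at 1277, 1693, 1287 and 1412 CPM in untreated libraries and 588, 560 and 601 CPM at 18 h (-1.28 ± 0.24, adjusted p = 0.00364; -1.23 with the covariate and no call). Mfap2, a microfibril protein, was at 584, 612, 794 and 658 CPM in untreated libraries and 185, 154 and 237 CPM at 18 h (-1.78 ± 0.31, adjusted p = 0.00258). Mfap4 was at 418, 1116, 795 and 830 CPM and 197, 196 and 265 CPM (-1.84 ± 0.31, adjusted p = 0.00195), and Ltbp3, which stores TGF-beta on microfibrils, at 278 to 301 CPM and 157 CPM in each 18 h library (-0.87 ± 0.19, adjusted p = 0.00904). All 4 were lower in every 18 h library than in any untreated one. Small leucine-rich proteoglycans, which coat collagen fibrils, had 2 of 10 lower, with 0 without 18 h replicate 1 or 2 or untreated replicate 2, 1 without 18 h replicate 3 or untreated replicate 3 or 4, and 5 without untreated replicate 1. Dcn, decorin, was at 4865, 9523, 10096 and 12318 CPM in untreated libraries and 5248, 3004 and 5505 CPM at 18 h, which overlapped (-1.0 ± 0.35, adjusted p = 0.071), and with the covariate it passed at -2.16.

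Of 22 basement membrane genes 2 rose (9.09%, against 7.83% of all tested genes) and 4 fell. Col4a1 was at 370, 263, 156 and 288 CPM in untreated libraries and 1081, 2005 and 709 CPM at 18 h (2.23 ± 0.36, adjusted p = 0.00146), and Col4a2, its partner chain, at 175 to 292 CPM and 788, 613 and 490 CPM (1.32 ± 0.27, adjusted p = 0.00621). Endothelial cells and pericytes also make both chains; Col4a1 was highest in 18 h replicate 2, and with the covariate Col4a1 passed at 2.91 while Col4a2 did not, at 1.29. The 4 lower calls were kept by none of the full set of leave-one-out fits, with 0 left without 18 h replicate 1, 1 without 18 h replicate 3 and 2 without untreated replicate 1, 2 or 4. Of 27 proteases, inhibitors and hyaluronan genes 7 rose (25.9%) and 2 fell (7.41%, against 4.67% of all tested genes), and the higher count was 3 with the covariate. The lower count was 0 without 18 h replicate 1, 1 without 18 h replicate 3 or untreated replicate 2, 3 or 4, and 7 with library totals. Timp1, an inhibitor of metalloproteases, was at 155, 91.5, 57.9 and 95.0 CPM in untreated libraries and 1641, 1774 and 1279 CPM at 18 h (3.97 ± 0.35, adjusted p = 1.2e-05). Has2, a hyaluronan synthase, was at 9.28, 9.48, 2.49 and 12.4 CPM and 32.9, 99.2 and 49.4 CPM (2.81 ± 0.45, adjusted p = 0.00147), and Adamts4, a protease of proteoglycans, at 4.62 to 23.7 CPM and 51.0, 166 and 82.6 CPM (2.86 ± 0.49, adjusted p = 0.00212). All were above the untreated range in each 18 h library. Mmp3, stromelysin, was at 11.3 to 25.1 CPM in untreated libraries and 254, 31.4 and 131 CPM at 18 h (2.90 ± 0.54, adjusted p = 0.00376), and with the covariate its call ended at -0.17.

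Of 24 tested niche and growth factors 4 rose and 5 fell (median -0.24), and in all leave-one-out fits 0 of the higher and 3 of the lower calls, Bmp4, Wnt5a and Igf2, were kept. The higher count was 1 without 18 h replicate 1 or 3 or untreated replicate 2 or 3, 2 without 18 h replicate 2 or untreated replicate 4, and 0 with the covariate. The lower count was 3 without 18 h replicate 1. Bmp4, a signal to thymic epithelium (chromosome 14, 46383520 to 46390669), was at 55.7, 96.5, 71.8 and 63.7 CPM in untreated libraries and 13.3, 30.2 and 17.6 CPM at 18 h (-1.88 ± 0.30, adjusted p = 0.00149). Wnt5a was at 9.28, 18.4, 18.1 and 24.9 CPM in untreated libraries and 4.78, 2.42 and 4.75 CPM at 18 h (-2.05 ± 0.41, adjusted p = 0.00579). Igf2, an imprinted growth factor, was at 118, 178, 85.3 and 66.7 CPM and 31.8, 14.5 and 28.5 CPM (-2.12 ± 0.52, adjusted p = 0.0174). None of the 3 overlapped, and with the marker covariate they stood at -1.88, -3.18 and -4.21 and passed. Igf1 fell from 33.0 to 95.6 CPM to 13.3 to 30.4 CPM (-1.68 ± 0.43, adjusted p = 0.0212), a call lost in 4 leave-one-out fits.

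Other niche factors did not pass, or lost their call in at least 1 leave-one-out fit, as Cxcl12 did in 3. Fgf7, a growth factor for epithelium, was at 8.77 to 25.1 CPM in untreated libraries and 13.3 to 18.5 CPM at 18 h (-0.20 ± 0.49, adjusted p = 0.833). Fgf10 was at 1.03 to 13.9 CPM and 0.475 to 1.21 CPM, with 3 counts at 18 h in all, and was called only with the covariate. Kitl, the ligand of KIT, was at 4.64 to 16.6 CPM and 2.42 to 8.49 CPM (-0.91 ± 0.53, adjusted p = 0.284). Cxcl12, which draws progenitors, was at 32.0 to 90.8 CPM in untreated libraries and 283, 67.7 and 277 CPM at 18 h (1.92 ± 0.47, adjusted p = 0.0168), so that 18 h replicate 2 lay inside the untreated range, and with the covariate its difference was -0.06. Il7 was not analysed here.

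Of 15 tested binding proteins and inhibitors of IGF and WNT signals 5 fell and 0 rose (33.3%, median -0.82), with 1 lower without 18 h replicate 1, 3 without 18 h replicate 3 and 8 with library totals. Apcdd1, an inhibitor of WNT at its receptors, was the 1 member to keep its call throughout, at 21.7, 30.7, 21.3 and 29.4 CPM in untreated libraries and 7.96, 4.84 and 4.27 CPM at 18 h (-2.14 ± 0.34, adjusted p = 0.00145). Igfbp5, an abundant IGF-binding protein, was at 5790, 3245, 4122 and 3668 CPM in untreated libraries and 937, 937 and 1454 CPM at 18 h (-1.92 ± 0.48, adjusted p = 0.0186), and it lost the call in 2 leave-one-out fits and, at -0.35, with the covariate. Both were lower in each 18 h library than in any untreated one.

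Among single genes outside the lists, the largest falls included Cpxm2, a carboxypeptidase-like protein of the matrix, at 111, 100, 51.2 and 66.0 CPM in untreated libraries and 6.90, 4.84 and 0.950 CPM at 18 h (-4.32 ± 0.71, adjusted p = 0.00174). Angptl1, a secreted angiopoietin-like protein, was at 108, 195, 111 and 116 CPM in untreated libraries and 6.90, 8.46 and 9.02 CPM at 18 h (-4.02 ± 0.68, adjusted p = 0.00196). Pdgfrl, a relative of the PDGF receptors that lacks their kinase, was at 81.0, 167, 58.6 and 91.2 CPM and 9.02, 7.26 and 9.02 CPM (-3.52 ± 0.65, adjusted p = 0.0034). The imprinted noncoding RNA H19, beside Igf2 in the genome, was at 649, 718, 352 and 269 CPM in untreated libraries and 42.5, 37.5 and 107 CPM at 18 h (-2.97 ± 0.62, adjusted p = 0.00714). All were lower in every 18 h library, which the rule for naming the largest changes required. With the covariate they stood at -6.48, -6.47, -5.74 and -5.01 and passed. Tmem132c (-3.33 ± 0.57), Ptprd, a receptor phosphatase (-3.47 ± 0.54), and Mturn (-3.03 ± 0.54) fell from lower levels, to at most 2.85 CPM at 18 h.

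**Figure D4:**
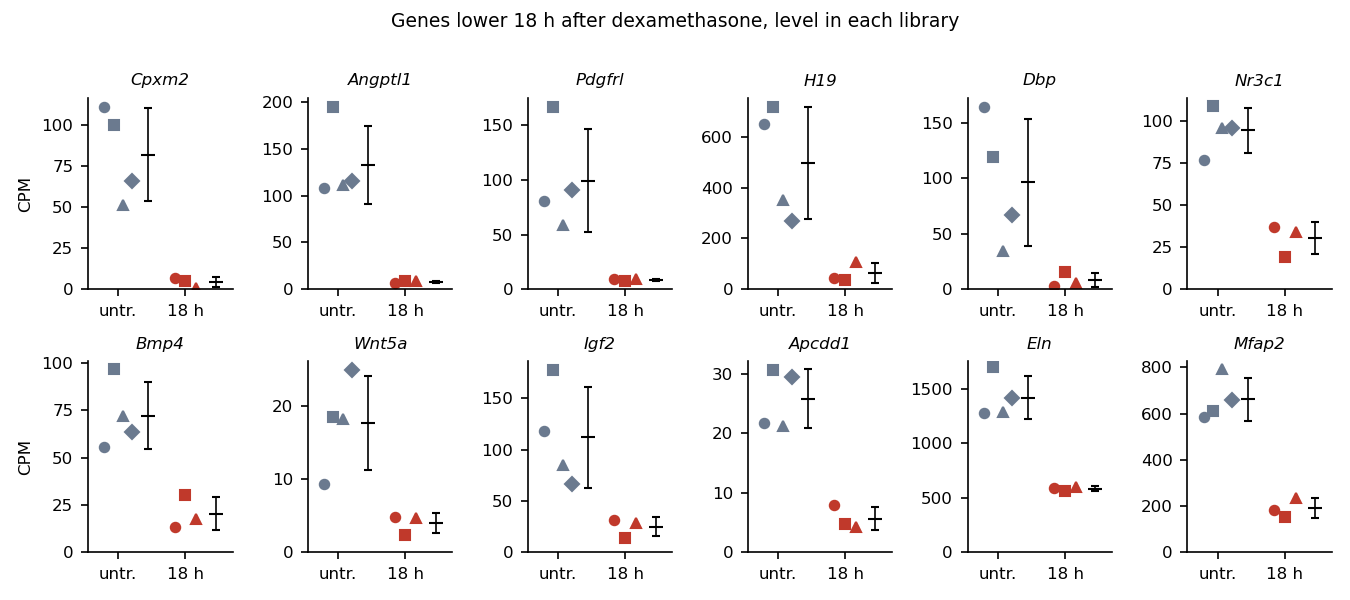
Level (CPM, linear axis from 0) of 12 genes in each of 4 untreated (grey) and 3 18 h (red) libraries, 1 symbol per replicate number, with black bars for mean and SD. Every 18 h library lies below every untreated library in all 12 panels. The rule that picked Cpxm2, Angptl1, Pdgfrl, H19 and Dbp required this, and 1161 of all 1258 calls had no overlap between the groups. The 18 h libraries of Eln lie close together, at 560 to 601 CPM.

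Fibroblast identity genes went both ways. Of 31 tested 5 rose (16.1%, against 7.83% of all tested genes) and 2 fell (6.45%, against 4.67%), with a median of -0.19. In all leave-one-out fits 4 of the higher and 0 of the lower calls were kept. Ly6a, a surface marker of progenitor-like fibroblasts that interferon also induces and that has close copies, was at 1317, 1367, 1130 and 1866 CPM in untreated libraries and 8434, 7268 and 6782 CPM at 18 h (2.40 ± 0.29, adjusted p = 1.5e-04). It passed with the covariate, at 1.67. Ackr3, a scavenger receptor for Cxcl12, was at 211 to 380 CPM and 846, 680 and 875 CPM (1.33 ± 0.25, adjusted p = 0.00396), and Pdgfrb, also a pericyte gene, at 51.2 to 102 CPM and 349, 349 and 122 CPM (1.86 ± 0.38, adjusted p = 0.00621). The covariate left Ackr3 at 0.56 and Pdgfrb at 1.62 without a call, and gave 1 higher and 7 lower in the list. The lower count was 0 without 18 h replicate 1 or untreated replicate 2 or 4 and 1 without 18 h replicate 2. Of 9 type 2 immune genes 3 rose (33.3%) and 0 fell, and all 3 kept their calls in the leave-one-out fits and lost them with the covariate. Among them was Il4ra, the receptor chain for IL-4 and IL-13, at 9.28, 5.58, 2.49 and 8.29 CPM in untreated libraries and 21.2, 24.2 and 22.8 CPM at 18 h (1.83 ± 0.44, adjusted p = 0.0159; 0.89 with the covariate). Il33, an alarmin of fibroblasts, was at 249, 258, 253 and 208 CPM in untreated libraries and 235, 73.8 and 385 CPM at 18 h (-0.06 ± 0.41, adjusted p = 0.947).

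Of 16 tested TGF-beta genes 1 rose (6.25%, against 7.83% of all tested genes) and 2 fell (12.5%, against 4.67%), none in all leave-one-out fits. Of 14 retinoic acid genes 2 rose (14.3%) and 1 fell (7.14%). Their summed level was 1442, 1366, 1592 and 1403 CPM in untreated libraries and 886, 955 and 905 CPM at 18 h. Rdh10, which makes retinal from retinol, was at 13.9 to 19.6 CPM and 30.3, 72.6 and 70.3 CPM (1.69 ± 0.30, adjusted p = 0.00301) and kept its call throughout. Of 15 lipid and adipogenic genes 2 rose (13.3%) and 2 fell (13.3%). Fabp4, a fatty acid carrier of adipocytes, macrophages and capillary endothelium, was the 1 call kept throughout, at 20.6 to 120 CPM in untreated libraries and 919, 379 and 231 CPM at 18 h (3.29 ± 0.60, adjusted p = 0.00326), and it ended with the covariate at 2.82.

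Single marker genes showed which other cells the 18 h libraries could hold. Of 14 tested endothelial markers 8 rose and 0 fell, 6 of them in all leave-one-out fits, and 19 rose without 18 h replicate 2, when more passed the count filter. The endothelial cadherin Cdh5, like Vwf and Selp below, was left out of the test by the count filter. It was at 0.355 to 1.13 CPM in untreated libraries and 81.2, 4.84 and 36.6 CPM at 18 h. Vwf, which endothelial cells store, had 0 counts in every untreated library and in 18 h replicate 2 and was at 29.2 and 7.60 CPM in 18 h replicates 1 and 3. Selp, the platelet and endothelial selectin, was at 0 to 3.90 CPM and 77.5, 1.21 and 74.6 CPM. Vwf and Selp were thus at or near 0 in 18 h replicate 2, while Cdh5 was above every untreated library there. Among called members, Flt1, a VEGF receptor, was at 14.5 CPM in 18 h replicate 2 against at most 5.02 CPM in untreated libraries, and Gpihbp1, a capillary lipase anchor, at 14.5 against at most 3.39 CPM. Icam2, an adhesion molecule, was at 7.26 against at most 4.15 CPM, and Cldn5, a tight junction protein, at 2.42 against at most 0.754 CPM. In all, 6 of the 14 tested endothelial markers were above every untreated library in 18 h replicate 2, against 32.9% of all tested genes. The count filter had kept these 14 of 29 listed markers, and it kept 25 without 18 h replicate 2. Other listed markers did not follow. Aqp1, a water channel that other cells also make, was at 208 to 328 CPM in untreated libraries and 230 to 316 CPM at 18 h (0.00 ± 0.40, adjusted p = 0.997). Kdr, a VEGF receptor, was at 70.5 to 121 CPM in untreated libraries and 36.6, 12.1 and 41.8 CPM at 18 h, lower in each 18 h library (-1.45 ± 0.47, adjusted p = 0.0606). Cdh5, Vwf, Selp, Aqp1 and Kdr were named after their values were seen. The test of the summed markers gave an exact permutation p of 0.114 (two-sided, adjusted p = 0.183 over 8 lists), where 0.0571 is the smallest p that 3 against 4 libraries allow.

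Of 19 tested macrophage and monocyte markers 10 rose and 0 fell, 4 in all leave-one-out fits, with 4 called without 18 h replicate 1 and 6 without 18 h replicate 3. Lyz2, lysozyme, named after its values were seen, was at 3.61, 17.8, 1.42 and 3.02 CPM in untreated libraries and 110, 6.05 and 125 CPM at 18 h (3.77 ± 0.99, adjusted p = 0.024). Ly6c2, a monocyte marker with close copies, was at 0.516 to 3.90 CPM and 53.1, 29.0 and 56.0 CPM (4.77 ± 0.64, adjusted p = 3.5e-04), and Cd68, of lysosomes, at 12.9 to 16.2 CPM and 28.1, 32.7 and 37.5 CPM (1.16 ± 0.23, adjusted p = 0.00588). C1qa, a complement gene of tissue macrophages, named after its values were seen, was at 0 to 19.5 CPM and 5.22 to 12.1 CPM (0.42 ± 1.16, adjusted p = 0.849). For Lyz2, 18 h replicate 2 lay inside the untreated range, and for Ly6c2 and Cd68 it lay above it. The exact permutation test of the sum gave p = 0.0571 (two-sided, adjusted p = 0.183).

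Sums of the remaining marker lists were mixed. The largest difference in mean sum over the 8 lists was that of B cell and dendritic cell markers, 1286 CPM, against 657 CPM for endothelial and 415 CPM for macrophage markers. The exact permutation p was 0.114 for B and dendritic cell and for pericyte and smooth muscle markers. It was 0.0571 for granulocyte, mast and innate lymphoid markers (adjusted p = 0.183 for each of the 3). Pericyte and smooth muscle markers, which mural cells of vessels express, summed to 265, 407, 271 and 546 CPM in untreated libraries and 1227, 587 and 442 CPM at 18 h, with 4 of 11 higher and 2 lower, and Tagln, a smooth muscle gene, rose from 20.1 to 44.9 CPM to 405, 175 and 104 CPM (2.90 ± 0.49, adjusted p = 0.002). The higher count was 2 without 18 h replicate 1, and the lower count was 0 without 18 h replicate 2 or 3 or untreated replicate 2, 3 or 4. Granulocyte, mast and innate lymphoid markers summed to 14.4 to 21.7 CPM and 183, 70.1 and 23.7 CPM, chiefly through S100a9, a neutrophil gene named after its values were seen, at 0 to 3.39 CPM and 101, 36.3 and 1.42 CPM. B cell and dendritic cell markers summed to 932 to 1061 CPM and 3330, 1039 and 2462 CPM, with 18 h replicate 2 again inside the untreated range, and Cd74, their most abundant member, was at 369 to 492 CPM and 1333, 594 and 882 CPM (1.11 ± 0.59, adjusted p = 0.239). Sums of T cell, thymic epithelial and mesothelial, Schwann and erythroid lists overlapped between the groups, at 22.2 to 95.9 and 37.5 to 99.2 CPM, 338 to 726 and 500 to 703 CPM, and 3127 to 5060 and 2187 to 4190 CPM. Of their tested genes edgeR called 0 of 3 granulocyte genes (1 at an unadjusted p below 0.05, 4 by DESeq2, 0 by limma-voom, and 2 without 18 h replicate 3) and 0 of 5 T cell genes (1, 0 and 0). It called 0 of 7 B and dendritic cell genes (2, 3 and 0, and 1 without 18 h replicate 1 or 2) and 0 of 10 mesothelial, Schwann and erythroid genes (1, 0 and 0, and 1 lower without 18 h replicate 3). The 1 call among 9 epithelial genes was Cd83, at 0.516 to 3.90 CPM and 13.8, 1.21 and 19 CPM (2.46 ± 0.76, adjusted p = 0.0476), lost in 6 leave-one-out fits. The part of other cells in the rises of the chemokine, interleukin-1 and protease genes was not tested beyond the covariate and the values of 18 h replicate 2 given above.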

How the data were processed

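Thymic fibroblast libraries were made by MARS-seq, per the labels' protocols. Raw read counts per gene were deposited by the authors in 1 table, and the submitters' processing notes name bcl2fastq, cutadapt, STAR 2.5.2b, HTSeq, DESeq2 and mm10. The sources used here do not state the strand setting, annotation or handling of molecular identifiers. Near copies and overlapping genes are therefore uncertain, and intervals cover counting error only. The authors' deposited fold change and p-value columns were not used.

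From the counts, edgeR 4.0.16 (R 4.3.3) was run with TMM scaling, filterByExpr with a minimum count of 10 and a robust quasi-likelihood fit of group over all 11 libraries, which included the group taken 4 d after dexamethasone. The adjusted p is Benjamini-Hochberg over 10067 genes of 12430 listed, with a threshold of 0.05, and the SE is the log2 difference over the square root of F. Alternatives were DESeq2 1.42.0, limma-voom 3.58.1, other scalings, other filters, the 7 libraries alone, a replicate block, a marker covariate, and leaving out shallow or single libraries. Marker sums were compared by exact permutation. On simulated counts for this comparison the test recovered 70% of genes changed 4-fold and 14% of those changed 2-fold. No replicate pair agreed within sampling noise (lowest chi-square per degree of freedom 4.79 over 15 pairs).

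Members and gene lists were chosen with earlier results of these data known. Genes were named where they were among the 12 largest changes each way that held in every leave-one-out fit, among the 5 smallest adjusted p of a list, called against a list's direction, or on a fixed list; others are marked as named after their values were seen. Coordinates are GENCODE M21 (GRCm38), and promoters are RefSeq GRCm38.p6, which covers 80.3% of tested genes. Some genes are not reported here.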

Additional observations from a re-analysis of the deposited data

Results flagged for a closer look

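Among the 4 untreated libraries, 12 of the 139 genes and 37 list sums examined had 1 library set apart from the others by more than Dixon's 95% critical value for 4 samples; chance alone sets apart about 1 in 20. In untreated replicate 1 these were the sums of acute-phase genes (10502 CPM) and endothelial markers (979 CPM), and the levels of Colec12 (301 CPM), Kdr (121 CPM), Ifnar1 (11.3 CPM), Csf2 (10.3 CPM) and Epcam (10.3 CPM), each above the other untreated libraries. In untreated replicate 2 they were Angptl1 (195 CPM), Lyz2 (17.8 CPM), Ccl4 (7.25 CPM) and Selp (3.90 CPM), also above the others. In untreated replicate 4 it was Gpihbp1 (3.39 CPM), above the others too. The cause of these differences was not tested.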

How the results depend on the processing

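Of 135 tested genes named above, 105 were called, and their calls were compared over 17 other settings. With the endothelial and macrophage marker covariate 38 of these calls were lost and 6 genes gained one, and the signs of Mmp3 (-0.17), Cxcl12 (-0.06), Cd83 (-1.73), Ptprc (-0.69) and Lyz2 (-2.34) turned. That covariate gave 274 genes higher and 232 lower; it separates the groups, so the markers and the treatment cannot be told apart in full. Library totals gave 902 lower. A fit of the 7 compared libraries alone gave 566 genes higher and 325 lower and lost 1 of the 105 calls. The leave-one-out fits gave 463 to 963 genes higher and 171 to 567 lower. The fit with a replicate block gave 443 genes higher and 205 lower and lost 10 of the 105 calls. Deviations of same-numbered libraries correlated at -0.138, -0.274 and 0.193, which cannot show whether the samples were paired. These numbers, also used for the replicate block, are those of the sample titles. The deposited columns number most untreated libraries otherwise, and a pairing by column number was not tested. DESeq2 and RLE size factors lost 0 of the named calls. Depth limits genes of low level most, above all in 18 h replicate 2, where a count of 0 allows 3.63 CPM.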
